A study of Homo sapiens with 15 samples.

Results

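The genes described here are a set of histone variants that cells make outside S phase together with a pair of regulators of histone mRNA. They are H2AX, H2AZ1, H2AZ2 and MACROH2A1 of the H2A family, H3-3A and H3-3B of the H3 family, the linker histone H1-10, the stem-loop binding protein gene SLBP and the histone gene coactivator gene NPAT. The set was named by gene symbol, and all 9 genes were found among the 62754 genes of the deposited count table. RNA was sequenced from MCF10A, a non-tumorigenic human mammary epithelial cell line of wild-type genotype, grown with glutamine at 0.04, 0.12, 0.20 or 0.28 mM or in full medium at 2.5 mM. Each of these 5 conditions had 3 biological replicates, which gives 15 libraries of RNA depleted of ribosomal RNA and spiked with ERCC control RNAs. The cells of every group came from the same line, so the values describe 1 line in culture, and how long the cells were kept at each concentration is not given in the sources used here.

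Most histone mRNA is made in S phase from clustered, intronless genes, and it ends in a conserved stem-loop in place of a poly(A) tail. SLBP binds that stem-loop and directs the cleavage, translation and decay of the message, and NPAT, a substrate of cyclin E and CDK2, activates the clustered genes at the G1 to S transition. Replacement variants such as H3.3, H2A.Z and macroH2A are transcribed from separate genes, mostly with introns and polyadenylated mRNA, and are placed in chromatin by dedicated chaperones and exchange complexes.

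Depth was 3704170 to 13361406 gene counts per library, and the spike-ins took 1.03 to 1.58% of all counts. Mitochondrial ribosomal RNA took over 1% of gene counts in 2 libraries, replicate 3 at 0.04 mM (2.97%) and replicate 3 at 0.12 mM (1.62%), which were also the shallowest 2 of the 15. The basal mammary markers KRT5, at 5840 to 7750 CPM (counts of a gene scaled to the size of its library), KRT14, KRT17 and TP63 were present in every library. Of the fibroblast markers LUM was at 0 in all 15 libraries, COL1A2 and PDGFRA had at most 0.36 and 0.467 CPM, and the summed level of the 5-gene list was 50.1 to 60.8 CPM at 0.04 mM against 32.6 to 45.3 CPM in full medium, from COL1A1 and DCN; its part in the results was not tested. Of the general epithelial markers EPCAM had 2.95 to 11.7 CPM, CDH1 70.8 to 102, KRT8 86.9 to 161 and KRT18 343 to 429. Of the immune markers CD3E, of T cells, was at 0 throughout, and PTPRC and CD68 had at most 0.093 and 0.539 CPM. The summed level of the immune list was 0 to 0.539 CPM at 0.04 mM against 0 to 0.0921 CPM in full medium. Of the 3 endothelial markers CDH5 was at 0 in all 15 libraries, VWF had at most 0.158 CPM and PECAM1 3.33 to 11.9 CPM. Their summed level was 4.9 to 11.9 CPM at 0.04 mM and 4.43 to 8.72 CPM over the other limited groups, against 3.33 to 5.54 CPM in full medium, and its part in the results was not tested. Whether the replicates came from cultures started separately is not stated beyond the word biological, so p-values measure the spread between these samples.

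All 9 genes passed the filter on low counts, with 143 to 5978 counts in any library. Per kilobase of their longest coding transcript, H2AZ1 stood highest at 364 CPM per kb (mean of 15 libraries). MACROH2A1 (167 CPM per kb), H3-3B (141) and H2AX (132) followed, and their ranges over libraries overlapped, so their order is not resolved. H1-10 averaged 60.1 CPM per kb, and SLBP and H2AZ2 were level at 35.6 and 35.4 CPM per kb with overlapping ranges. H3-3A averaged 21.4 CPM per kb and NPAT 5.63 CPM per kb, each below every library of the gene above it in this order. In the plot of levels by sample, replicate 2 is above replicate 1 in every group for H2AZ1, H2AZ2, H3-3A, H3-3B and NPAT.

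**Figure D1:**
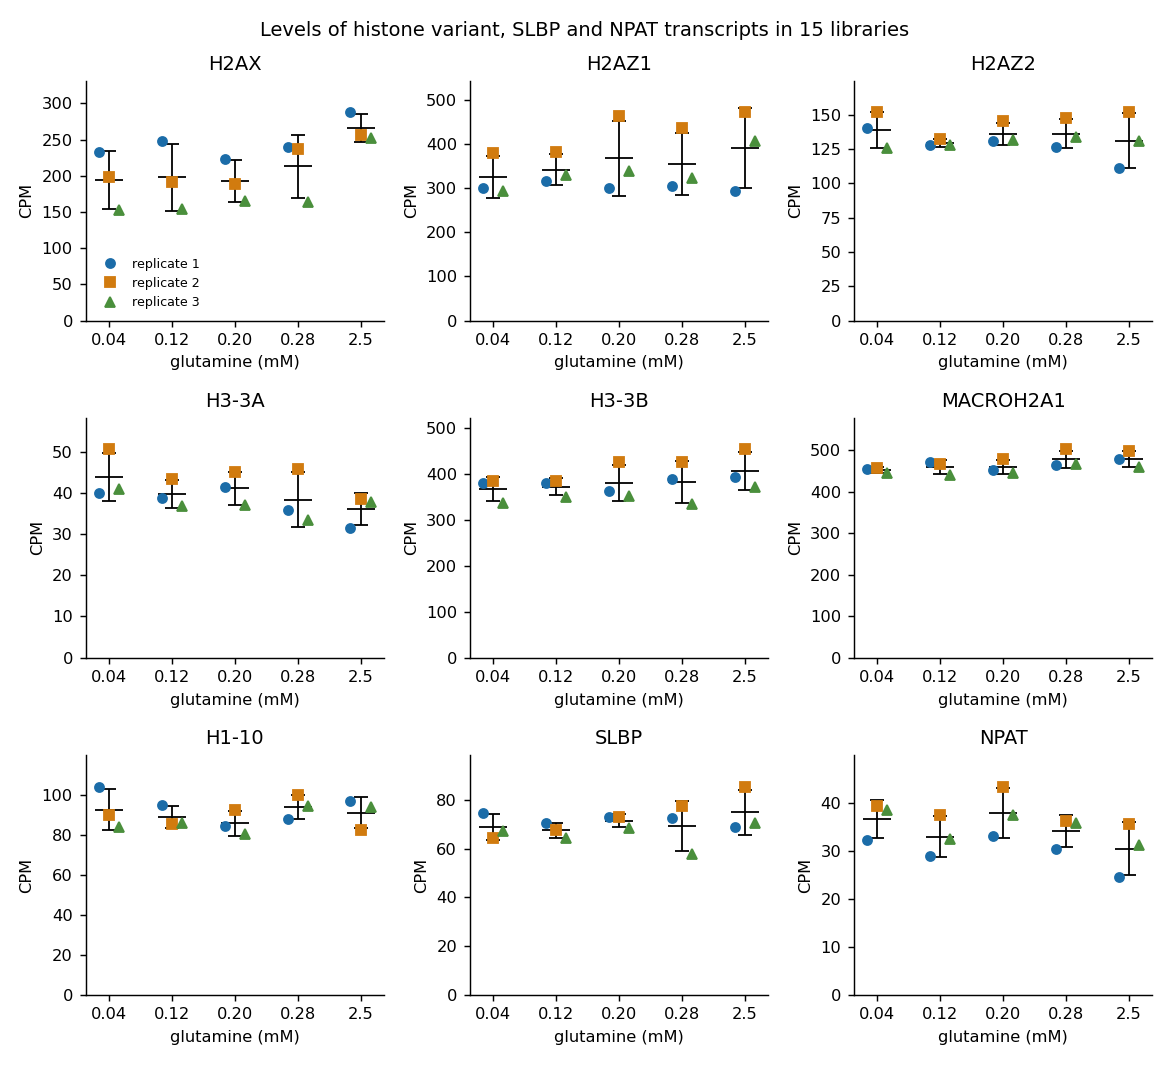
Level of each gene (y axis, CPM, from 0) at each glutamine concentration (x axis, mM, where 2.5 mM is full medium), with 1 symbol per replicate number and the mean ± SD of 3 replicates as a bar. For H2AX, all 12 libraries of limited glutamine lie below the lowest library of full medium, at 252.1 CPM.

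Differences were tested with edgeR over 13828 genes, with Benjamini-Hochberg adjustment and a threshold of 0.05 on the adjusted p. Replicates with the same number deviated together, so each change is given from 2 fits: the planned fit with 1 term per group, here called unblocked, and a fit that adds the replicate number as a blocking term, here called blocked. In the unblocked fit 0 of the 9 genes passed at any concentration, where 0.0434% of all genes tested passed at 0.04 mM and 0.0145% at 0.20 mM, and DESeq2 without the block also gave 0. At an unadjusted p under 0.05 the unblocked fit listed 1 gene, H2AX, at each of 0.04, 0.12 and 0.20 mM, and 0 at 0.28 mM, where 11.6, 8.04, 10.2 and 4.45% of all genes were listed from 0.04 to 0.28 mM.

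In the blocked fit 2 of the 9 genes passed at 0.04 mM, H2AX and H2AZ1, both lower, where 13.4% of all genes tested passed and 6.23% fell. At 0.12 mM only H2AX passed, where 8.31% of all genes passed and 3.9% fell. At 0.20 mM H2AX fell and NPAT rose, where 14.8% of all genes passed, 7.16% lower and 7.67% higher. At 0.28 mM only H2AX passed, where 2.08% of all genes passed and 0.846% fell. In bulk RNA, fewer cells in a state that makes a message and less of it per cell cannot be told apart. The median blocked log2 change of the 9 genes was -0.083 at 0.04 mM, -0.058 at 0.12 mM, -0.064 at 0.20 mM and -0.0013 at 0.28 mM, beside medians of 0.0063, 0.0047, 0.0032 and 3.45e-05 over all genes tested. The 4 comparisons share the full-medium libraries. A share of 2 in 9 genes is near the background at 0.04 and 0.20 mM, so the count says little of the set as a whole, and the results below are those of single genes.

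**Figure D2:**
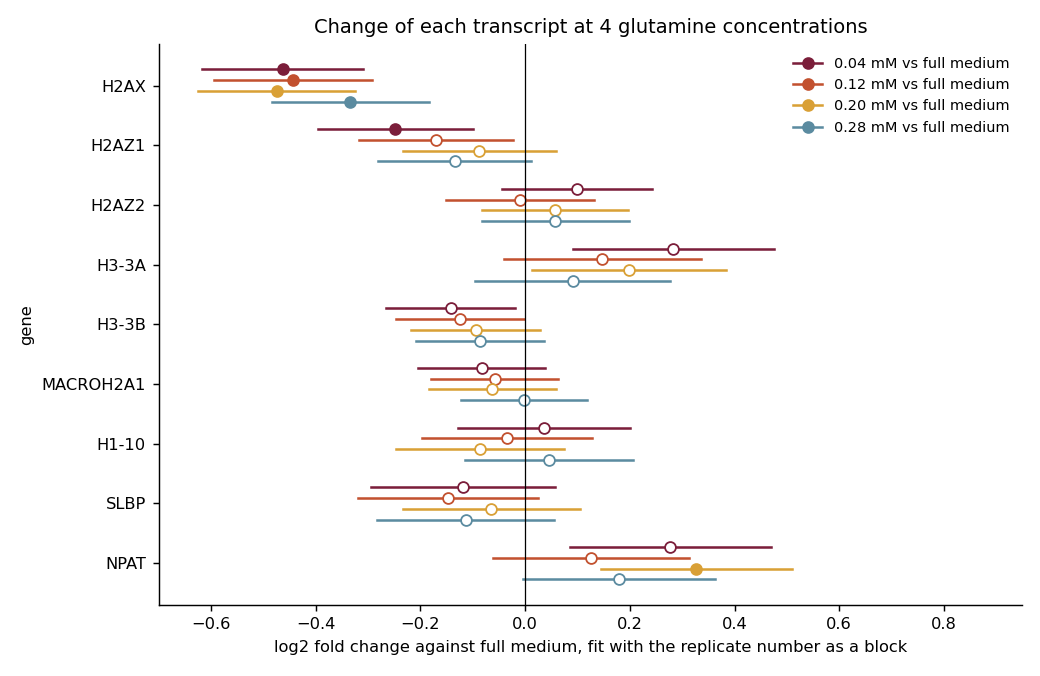
Log2 fold change against full medium (x axis) of each gene (y axis) in the blocked fit, with 1 colour per concentration and lines of 1.96 standard errors to each side; filled points passed an adjusted p of 0.05. H2AX is filled at all 4 concentrations, from -0.47 to -0.33, H2AZ1 at 0.04 mM and NPAT at 0.20 mM.

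H2AX encodes the H2A variant whose C-terminal serine is phosphorylated around DNA double-strand breaks. The gene lies on chromosome 11 at 119093874 to 119095465 on the minus strand (GRCh38.p14), is intronless, and shares no exon bases with another annotated gene. It stands between the histone classes, since its mRNA is known both in a short form ended at a stem-loop and in a longer polyadenylated form. A search of the coding transcripts of GENCODE 29 for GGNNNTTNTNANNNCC on the sense strand, with the first 6 bases the reverse complement of the last 6, found the stem-loop in H2AX alone among the 9 genes. It was found in 26 of 59 replication-dependent histone genes with a coding transcript (44.1%) and in 60 of 19684 protein-coding genes (0.305%). The search read fixed letters in annotated transcripts and missed many genes of a class whose mRNA ends in the stem-loop. A gene without a match may therefore still hold the element. The H2AX element lay at bases 555 to 570 of a transcript of 1614 bases, so that 1044 bases followed it. In the annotated transcripts of H2BC8 and H2BC9, 1059 and 1640 bases followed it, so a long stretch after the element was not particular to H2AX. The H2AX element is shown beside those of H2BC8 and H2BC9, members of the replication-dependent class with blocked log2 changes of -0.60 and -0.66 at 0.04 mM. The search gave no match for H2BC12 and H2BC14 of that class, with changes of -0.52 and -0.73. Whether a match goes with a decrease was not tested. The 16 bases of stem and loop are in capitals.
H2AX: acaaaGGCCCTTTTAAGGGCCaccaccgcc
H2BC8: tcaaaGGCTCTTTTCAGAGCCactcaagtc
H2BC9: ccaaaGGCTCTTTTCAGAGCCacttaatga
Gene counts do not separate the 2 forms of the H2AX message.

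H2AX fell at all 4 limited concentrations. It had 233.0, 198.0 and 152.6 CPM at 0.04 mM (replicates 1 to 3), 247.5, 191.3 and 154.8 CPM at 0.12 mM, 223.2, 189.0 and 165.7 CPM at 0.20 mM, and 239.4, 236.9 and 163.3 CPM at 0.28 mM, against 287.8, 256.9 and 252.1 CPM in full medium. All 12 libraries of limited glutamine were below all 3 of full medium, and replicate 3 was the lowest of every group. The group means were 194.5 ± 40.3 CPM at 0.04 mM, 197.8 ± 46.7 at 0.12 mM, 192.6 ± 28.9 at 0.20 mM and 213.2 ± 43.2 at 0.28 mM, against 265.6 ± 19.4 CPM in full medium (SD, n = 3 each). Lower without overlap is a pattern that 8.21% of all genes showed at 0.04 mM, 6.66% at 0.12 mM, 8.40% at 0.20 mM and 4.95% at 0.28 mM.

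The blocked log2 change of H2AX was -0.46 ± 0.078 (SE) at 0.04 mM, with an edgeR adjusted p of 0.000169, and the level was lower in 3 of 3 replicate pairs. It was -0.44 at 0.12 mM (adjusted p = 0.000523), -0.47 at 0.20 mM (0.000109) and -0.33 at 0.28 mM (0.0193), each lower in 3 of 3 pairs. The unblocked fit gave nearly the same sizes with a larger spread, -0.44 ± 0.18 at 0.04 mM (adjusted p = 0.361), -0.42 at 0.12 mM (0.598), -0.46 at 0.20 mM (0.444) and -0.32 at 0.28 mM (1.0). The decrease was largest within replicate 3, at -0.72, -0.70, -0.61 and -0.63 from 0.04 to 0.28 mM, against -0.31, -0.22, -0.37 and -0.27 within replicate 1. With the 2 libraries rich in mitochondrial ribosomal RNA left out, the H2AX change at 0.04 mM was -0.41 (adjusted p = 0.00441), and with replicate 3 left out of every group -0.33 (0.0206). At 0.28 mM the call did not hold without replicate 3 (-0.19, adjusted p = 0.435), without the full-medium replicate 3 alone (-0.22, 0.147), or without replicate 1 (-0.31, 0.138) or replicate 3 (-0.27, 0.238) of the 0.28 mM group. Over all genes 0, 23, 8 and 6 fell in these fits, in the same order.

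No relation of H2AX to dose was called within the limited range. Between 0.04 and 0.28 mM the H2AX level was lower at 0.04 mM in 3 of 3 replicate pairs, and the blocked log2 difference was -0.13 (adjusted p = 0.667, edgeR; 0.0434% of all genes passed), and the slope over the log2 of the concentration was 0.033 per doubling (adjusted p = 0.811; 0% of all genes passed). None of the 9 genes passed either test in edgeR with or without the block; at an unadjusted p under 0.05 the blocked fit listed 0 for the difference and 1, H2AZ1, for the slope, where 9.02 and 7.69% of all genes were listed. With 3 libraries a group these tests do not show that the levels at the 4 concentrations were equal.

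The promoter windows of H2AX, H2AZ1 and NPAT, the 3 genes that passed in any comparison, are shown from RefSeq (GRCh38.p14), from 250 bases before to 50 bases after the start site, in the direction of the gene. Capitals mark the CCAAT box, read as CCAAT on either strand, and the TATA box, read as TATAAA. The windows are chr11:119095416-119095715 for H2AX, chr4:99950226-99950525 for H2AZ1 and chr11:108222589-108222888 for NPAT, all on the minus strand.
H2AX: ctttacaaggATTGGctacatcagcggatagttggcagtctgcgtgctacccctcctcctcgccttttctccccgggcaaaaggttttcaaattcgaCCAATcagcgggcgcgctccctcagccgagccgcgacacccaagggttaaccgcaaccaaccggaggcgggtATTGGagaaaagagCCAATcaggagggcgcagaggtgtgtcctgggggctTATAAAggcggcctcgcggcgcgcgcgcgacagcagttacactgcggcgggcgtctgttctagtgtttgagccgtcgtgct
H2AZ1: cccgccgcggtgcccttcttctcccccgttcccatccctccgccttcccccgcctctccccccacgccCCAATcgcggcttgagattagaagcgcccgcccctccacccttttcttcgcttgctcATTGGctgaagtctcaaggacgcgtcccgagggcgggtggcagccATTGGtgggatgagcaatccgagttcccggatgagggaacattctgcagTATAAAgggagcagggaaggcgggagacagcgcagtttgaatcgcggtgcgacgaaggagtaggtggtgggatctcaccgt
NPAT: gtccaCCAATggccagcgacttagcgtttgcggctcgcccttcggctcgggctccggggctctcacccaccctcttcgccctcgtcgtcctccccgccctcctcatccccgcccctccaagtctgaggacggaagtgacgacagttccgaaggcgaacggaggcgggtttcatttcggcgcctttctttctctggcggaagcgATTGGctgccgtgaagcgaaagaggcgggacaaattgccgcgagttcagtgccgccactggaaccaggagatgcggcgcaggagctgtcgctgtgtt
H2AX held 4 CCAAT boxes, the nearest 67 bases upstream, a TATA box 31 bases upstream and no GC box (GGGCGG). H2AZ1 held 3 CCAAT boxes, 2 GC boxes and a TATA box, also 31 bases upstream. NPAT held 2 CCAAT boxes, 2 GC boxes and no TATAAA. Of 35116 promoter windows of the same length 34.6% held CCAAT, 11.5% TATAAA, 4.58% both and 45.0% GGGCGG, on either strand. H3-3B, with 4 CCAAT boxes and a TATA box 29 bases upstream, also held CCAAT and TATAAA, and H1-10 a TATA box alone. GC boxes were found in windows of H2AZ2, H3-3A, H3-3B, MACROH2A1 and SLBP too. The E2F motifs TTTGGCGC and TTTCGCGC, present in 0.652 and 0.515% of windows, were not among the letters of any of the members' windows. The motif TTTGAA, named CHR and present in 15.2% of windows on either strand, was found in H2AX and H2AZ1. Its first base lay 164 bases upstream of the start site in H2AX and at base 5 after it in H2AZ1. No window of the other members held it. A link of these motifs to the changes was not tested.

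H2AZ1 and H2AZ2 encode 2 forms of H2A.Z, the variant at nucleosomes that flank active start sites, from separate genes. H2AZ1 lies on chromosome 4 at 99948088 to 99950275 and H2AZ2 on chromosome 7 at 44826889 to 44848126, both on the minus strand. H2AZ1 fell at 0.04 mM in the blocked fit. It had 301.3, 380.5 and 294.7 CPM at 0.04 mM, 315.8, 382.4 and 330.9 CPM at 0.12 mM, 301.1, 464.6 and 339.8 CPM at 0.20 mM, and 305.3, 436.9 and 323.5 CPM at 0.28 mM, against 293.8, 473.0 and 406.9 CPM in full medium. Replicate 2 was high in every group, and the groups overlapped at all 4 concentrations. The blocked log2 change at 0.04 mM was -0.25 ± 0.076 (edgeR adjusted p = 0.0259; unblocked -0.26, 0.622), from differences of 0.036, -0.31 and -0.47 within replicates 1, 2 and 3. The call at 0.04 mM was lost without the 2 libraries rich in mitochondrial ribosomal RNA (-0.20, adjusted p = 0.155), without replicate 3 in every group (-0.13, 0.416), with spike-in scaling (-0.26, 0.227), with the GC and length offset (-0.19, 0.0833), and without any 1 of the full-medium replicate 2 (-0.23, 0.089), the full-medium replicate 3 (-0.16, 0.189), the 0.04 mM replicate 2 (-0.22, 0.138) or the 0.04 mM replicate 3 (-0.21, 0.17). At the other concentrations it was -0.17 at 0.12 mM (0.170), -0.087 at 0.20 mM (0.477) and -0.13 at 0.28 mM (0.382).

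H2AZ2 had 140.2, 151.9 and 125.6 CPM at 0.04 mM and 126.9 to 147.8 CPM at 0.28 mM, against 111.6, 151.8 and 130.6 CPM in full medium. The groups overlapped, and the blocked log2 change lay between -0.010 at 0.12 mM and 0.099 at 0.04 mM (adjusted p = 0.957 and 0.408). The H2AZ1 count per H2AZ2 count was 2.33 ± 0.178 at 0.04 mM, 2.64 ± 0.216 at 0.12 mM, 2.69 ± 0.461 at 0.20 mM and 2.59 ± 0.316 at 0.28 mM, against 2.95 ± 0.279 in full medium (SD, n = 3 each). At 0.04 mM the ratio was 2.15, 2.51 and 2.35, below the 2.63, 3.12 and 3.12 of full medium in all 3 replicates. This ratio was not tested, and the share of other gene pairs with such a pattern was not computed. The 6 H2AZ1 pseudogenes held 34 counts in all, 0.071% of the H2AZ1 counts.

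MACROH2A1 encodes macroH2A1, an H2A variant with a large C-terminal macro domain, from chromosome 5 at 135334381 to 135399887 on the minus strand. It had 453.6, 457.6 and 444.0 CPM at 0.04 mM and 465.3, 501.9 and 467.9 CPM at 0.28 mM, against 479.3, 497.6 and 459.3 CPM in full medium. The libraries at 0.04 mM were below all of those in full medium and all of those at 0.28 mM, by a small margin, and 3.3% of all genes were lower without overlap at 0.04 than at 0.28 mM. The blocked log2 change at 0.04 mM was -0.083 ± 0.062 (adjusted p = 0.412), and from 0.12 to 0.28 mM it was -0.058, -0.062 and -0.0013 (0.635, 0.554 and 0.994). The 2 splice forms of macroH2A1 are not separated in gene counts, and 30.9% of its exon bases lie in antisense genes, PITX1-AS1 foremost, so that without a stated strand rule its counts are uncertain. PITX1-AS1 held 262 counts in all libraries against 62996 for MACROH2A1.

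H3-3A and H3-3B encode the same protein, histone H3.3, which replaces H3 outside replication. H3-3A lies on chromosome 1 at 226061831 to 226072019 on the plus strand, and H3-3B on chromosome 17 at 75776434 to 75779779 on the minus strand. H3-3A had 40.07, 50.57 and 40.98 CPM at 0.04 mM, 38.81, 43.46 and 36.76 CPM at 0.12 mM, 41.39, 44.97 and 36.95 CPM at 0.20 mM, and 35.88, 45.90 and 33.42 CPM at 0.28 mM, against 31.60, 38.60 and 37.89 CPM in full medium. At 0.04 mM all libraries were above all of full medium, a pattern 6.95% of all genes showed, and the other groups overlapped. The blocked log2 change was 0.28 ± 0.098 at 0.04 mM (edgeR adjusted p = 0.0516; unblocked 0.29, 0.461), 0.15 at 0.12 mM (0.387), 0.20 at 0.20 mM (0.162) and 0.091 at 0.28 mM (0.696), so it passed at none. It passed at 0.04 mM in 4 of 14 blocked alternatives, with DESeq2 size factors (adjusted p = 0.0428), with a minimum of 5 CPM (0.0399), without replicate 3 in every group (0.0387) and without the full-medium replicate 3 (0.0153), and at 0.20 mM in 1 of 14, without the full-medium replicate 3 (0.30, 0.0465). With spike-in scaling it was -0.038 at 0.12 mM and -0.050 at 0.28 mM. The processed pseudogene H3F3AP4 held 2011 counts, 37.8% as many as H3-3A, and reads may be split between them, so the H3-3A values are uncertain. H3F3AP4 averaged 16.4 ± 3.49 CPM at 0.04 mM and 13.2 ± 4.96 CPM in full medium, with overlap and a blocked log2 change of 0.37 (adjusted p = 0.186).

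H3-3B had 379.2, 385.4 and 336.7 CPM at 0.04 mM and 387.7, 426.1 and 334.6 CPM at 0.28 mM, against 393.5, 453.1 and 371.6 CPM in full medium. The groups overlapped, and the level was lower within all 3 replicate numbers at each of the 4 concentrations. These pairs share the full-medium libraries, and the share of all genes with this pattern was not computed. The blocked log2 change was -0.14 ± 0.063 at 0.04 mM (adjusted p = 0.137), -0.12 at 0.12 mM (0.240), -0.095 at 0.20 mM (0.333) and -0.086 at 0.28 mM (0.532). The H3-3B count per H3-3A count was 8.43 ± 0.940 at 0.04 mM, 9.39 ± 0.50 at 0.12 mM, 9.25 ± 0.411 at 0.20 mM and 10.03 ± 0.76 at 0.28 mM, against 11.3 ± 1.37 in full medium (SD, n = 3 each). At 0.04 mM the ratio was 9.46, 7.62 and 8.22, all below the 12.5, 11.7 and 9.81 of full medium. It too was not tested, and no share over other gene pairs was computed.

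H1-10 encodes the linker histone variant H1.X, from chromosome 3 at 129314771 to 129316286 on the minus strand. It had 104.3, 89.81 and 84.11 CPM at 0.04 mM and 84.78, 92.67 and 80.28 CPM at 0.20 mM, against 97.00, 82.48 and 94.08 CPM in full medium. The groups overlapped throughout, and the blocked log2 change lay between -0.087 at 0.20 mM and 0.046 at 0.28 mM (adjusted p = 0.533 and 0.836). Of its exon bases 22.9% lie in the antisense gene H1-10-AS1, which held 405 counts against 12290 for H1-10.

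SLBP lies on chromosome 4 at 1692731 to 1712319 on the minus strand and shares no exon bases with another gene. It had 74.66, 64.21 and 67.40 CPM at 0.04 mM, 70.50, 67.54 and 64.43 CPM at 0.12 mM, 72.93, 73.07 and 68.28 CPM at 0.20 mM, and 72.38, 77.66 and 57.66 CPM at 0.28 mM, against 68.81, 85.49 and 70.37 CPM in full medium. Replicate 1 was higher than its full-medium partner at all 4 concentrations, and replicates 2 and 3 were lower, so the groups overlapped. The blocked log2 change was -0.12 ± 0.090 at 0.04 mM (adjusted p = 0.418), -0.15 at 0.12 mM (0.331), -0.064 at 0.20 mM (0.679) and -0.11 at 0.28 mM (0.560). Its interval at 0.04 mM, of 1.96 standard errors to each side, ran from -0.295 to 0.0566 on the log2 scale. SLBP protein, which is known to be degraded at the end of S phase, was not measured here.

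NPAT lies on chromosome 11 at 108157215 to 108222638 on the minus strand. It had 32.17, 39.39 and 38.55 CPM at 0.04 mM, 28.91, 37.38 and 32.40 CPM at 0.12 mM, 33.02, 43.39 and 37.49 CPM at 0.20 mM, and 30.35, 36.19 and 35.89 CPM at 0.28 mM, against 24.50, 35.49 and 31.19 CPM in full medium. It was higher within all 3 replicate numbers at each concentration, except that with spike-in scaling the blocked change at 0.12 mM was -0.055. The groups overlapped, with replicate 1 low in each. The pairs of the concentrations reuse the full-medium libraries, and how many of all genes were so placed was not computed. NPAT rose at 0.20 mM in the blocked fit, with a log2 change of 0.33 ± 0.093 (edgeR adjusted p = 0.0162; unblocked 0.32, 0.490). The change was 0.28 at 0.04 mM (0.0551), 0.13 at 0.12 mM (0.475) and 0.18 at 0.28 mM (0.350). The call at 0.20 mM was lost with an offset for GC content and transcript length (0.11, adjusted p = 0.532), with spike-in scaling (0.27, 0.295), with no filter beyond 1 count (0.32, 0.0514), without replicate 3 in every group (0.36, 0.0533), and without the full-medium replicate 1 (0.27, 0.0763), the 0.20 mM replicate 1 (0.32, 0.0683) or the 0.20 mM replicate 2 (0.30, 0.0697).

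NPAT and ATM, the kinase that phosphorylates H2AX at breaks, are divergent neighbours whose annotated start sites lie 429 and 687 bases apart on opposite strands, and 143 exon bases (1.90% of NPAT's) are shared. ATM rose at 0.04 mM, with 131.9 ± 18 CPM against 105.4 ± 16.7 CPM in full medium (SD, n = 3 each) and a blocked log2 change of 0.33 (edgeR adjusted p = 0.00583; unblocked adjusted p = 0.472), and at 0.20 mM, by 0.39 (0.000986). ATM did not pass at 0.12 mM (0.20, 0.125) or 0.28 mM (0.11, 0.501), and its call at 0.04 mM was lost with the GC and length offset (0.15, 0.157), with spike-in scaling (0.32, 0.167) and without replicate 3 in every group (0.30, 0.0567). The ATM call at 0.20 mM was lost with the GC and length offset (0.19, 0.08) and with spike-in scaling (0.34, 0.123).

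**Figure D3:**
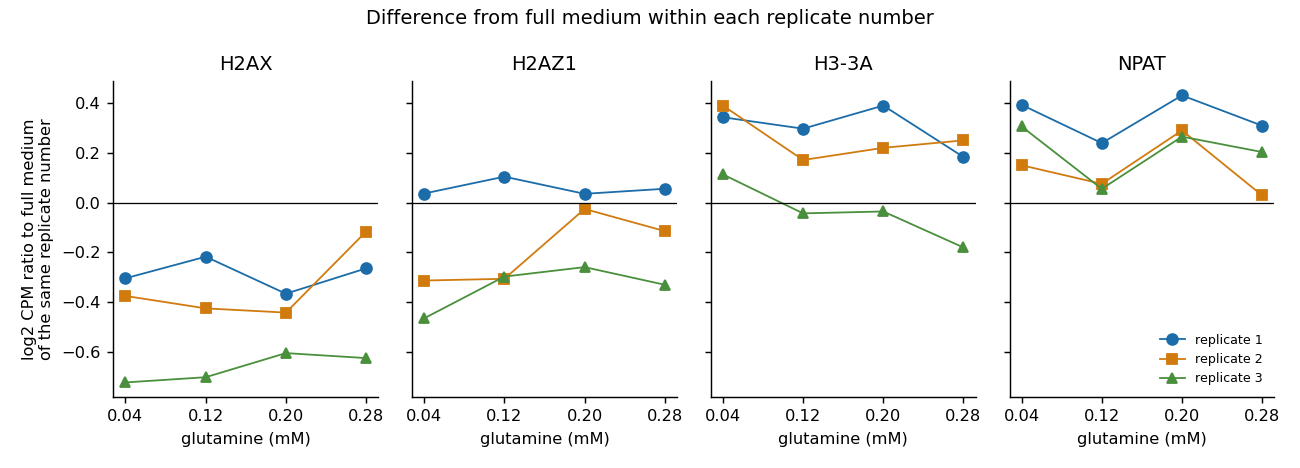
Log2 ratio of CPM to the full-medium library of the same replicate number (y axis) at each limited concentration (x axis, mM) for H2AX, H2AZ1, H3-3A and NPAT, with 1 line per replicate number. All 12 H2AX values are below 0 and lowest in replicate 3, all 12 NPAT values are above 0 with TMM scaling (with spike-in scaling the blocked change at 0.12 mM was -0.055), and H2AZ1 and H3-3A hold values on both sides.

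Over the 15 libraries, with the mean of each replicate number removed, the log2 levels of H2AZ1 and H3-3B varied together most closely (Pearson r = 0.825), and those of H2AX and NPAT most oppositely (r = -0.719). H2AX and H3-3B had r = 0.730, H3-3B and SLBP 0.767, and H2AX and SLBP 0.487. Among 10399 genes with a mean of at least 5 CPM, the levels of CLUH (r = 0.974), TUBB4B (0.965), LMNB2 (0.957), SLC25A1 (0.948) and CDC20 (0.947) were most like that of H2AX. Those most like SLBP were ZNF330 (r = 0.910), KHK (0.887), DNAJA1 (0.871), GTF3C6 (0.851) and HDDC2 (0.848). These correlations share the libraries and their depth and are descriptions over 15 points.

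The genes around this set were read from lists of known roles, given by the blocked fit at 0.04 mM unless another concentration is named, where 6.23% of all genes fell and 7.21% rose, and shown in the plot of list changes. In the unblocked edgeR fit 0 genes of these 9 lists passed at any concentration. DESeq2 without the block called 13 replication-dependent histone genes at 0.04 mM and 6 at 0.20 mM, and 1 gene each of the H3.3, H2A.Z and replication-coupled lists at 0.04 mM. Over all genes that DESeq2 fit called 100 higher and 55 lower at 0.04 mM, and 28 higher and 15 lower at 0.20 mM. Of the replication-dependent histone genes, which supply new chromatin in S phase, 63 of 66 listed symbols were matched and 51 passed the filter on low counts. At 0.04 mM 49 of the 51 fell and none rose, with a median log2 change of -0.48 beside 0.0063 over all genes. The unblocked fit had 45 of 51 at an unadjusted p under 0.05, where 11.6% of all genes were listed. From 0.12 to 0.28 mM 37, 47 and 22 fell, with medians of -0.35, -0.41 and -0.28. H2BC9 had 91.5 ± 0.929 CPM at 0.04 mM against 143.8 ± 12.4 CPM in full medium (SD, n = 3 each; log2 change -0.66, adjusted p = 4.86e-07; unblocked 0.0685), and H2BC14, H2BC8 and H2BC12 changed by -0.73, -0.60 and -0.52. Beside these medians the H2AX changes were -0.46 at 0.04 mM and -0.44, -0.47 and -0.33 at the higher limited concentrations, and the difference was not tested. Without the 2 libraries rich in mitochondrial ribosomal RNA 48 histone genes fell at 0.04 mM, where 671 of all genes fell. Without replicate 3 in every group 43 fell there, 26 at 0.12 mM, 30 at 0.20 mM and 0 at 0.28 mM. Over all genes 398, 181, 339 and 0 fell in that setting, in the same order. At 0.12 mM 18 fell without the 0.12 mM replicate 2, where 244 of all genes fell. At 0.28 mM 8 fell without the full-medium replicate 2 and 6 without the full-medium replicate 3, where 24 and 23 of all genes fell. With replicate 1 or replicate 3 of the 0.28 mM group left out 1 fell each, where 8 and 6 of all genes fell. Clustered histone genes share near-identical coding sequence, so counts of single ones are uncertain.

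Of the other histone variants 4 of 11 passed the filter. MACROH2A2, which encodes macroH2A2, fell to 32.9 ± 5.04 CPM at 0.04 mM against 43.7 ± 2.47 CPM in full medium (SD, n = 3 each; log2 change -0.40, adjusted p = 0.00667; unblocked 0.230), without overlap. It fell at 0.20 mM too (-0.33, 0.0157). The call at 0.04 mM was lost with spike-in scaling (-0.41, adjusted p = 0.0853), without replicate 3 in every group (-0.36, 0.0557) and without the 0.04 mM replicate 2 (-0.34, 0.0674). The MACROH2A2 call at 0.20 mM was lost with spike-in scaling (adjusted p = 0.104), with the GC and length offset (0.0922), without replicate 3 in every group (0.0516), without the full-medium replicate 2 (0.0507) and without the 0.20 mM replicate 1 (0.169). The centromeric variant CENPA (-0.13, adjusted p = 0.532) and H2AJ (-0.27, 0.327) did not pass. The other 7, H3-5 among them, had at most 18 counts over all libraries.

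Of 19 histone pre-mRNA processing genes 1 rose and none fell, with a median of -0.082. The gene that rose, SNRPD3, encodes an Sm protein shared with the spliceosome (log2 change 0.31, adjusted p = 0.00803), and its call was lost with spike-in scaling (adjusted p = 0.203) and without replicate 3 in every group (0.0501). The subunits particular to the U7 snRNP were at -0.082 (LSM10, adjusted p = 0.693) and 0.0023 (LSM11, 0.995), and its partner ZNF473 was at -0.37 (0.0678). CASP8AP2, the FLASH protein of histone locus bodies, was at 0.23 (0.114). Of 10 tested genes of histone gene transcription 0 passed in edgeR or DESeq2, with or without the block, at any concentration. At 0.04 mM 0 unblocked and 1 blocked had an unadjusted p under 0.05 in edgeR, where 11.6 and 27.1% of all genes did. The NPAT partners CCNE1 (-0.11, 0.627) and CDK2 (-0.10, 0.498) and the H4 gene activator HINFP (0.23, 0.451) were among the 10. POU2AF1 had no counts.

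Of 9 tested genes of histone mRNA translation and decay 3 rose and none fell, with a median of -0.063. They were the 5′ exonuclease XRN1 (54.3 ± 9.22 CPM at 0.04 mM against 39.5 ± 2.87 CPM in full medium; log2 change 0.44, adjusted p = 0.00252) and the terminal uridylyltransferases TUT4 (0.34, 0.00638) and TUT7 (0.25, 0.0470). All 3 act on other RNAs too. The TUT7 call was kept in 4 of 14 blocked alternatives, and of the 6 fits that each left out 1 library it held only in that without the full-medium replicate 1; without the 0.04 mM replicate 1 only XRN1 passed. ERI1, the 3′ exonuclease that trims the histone stem-loop, was at -0.074 (0.708). With the GC and length offset, and with spike-in scaling, 0 genes of this list passed in edgeR, against the 3 of the blocked fit with TMM scaling alone. Over all genes 708 rose with the offset and 282 with spike-in scaling, against 997 with TMM scaling alone. At an unadjusted p under 0.05 the blocked fit with TMM scaling listed 6, where 27.1% of all genes were listed.

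**Figure D4:**
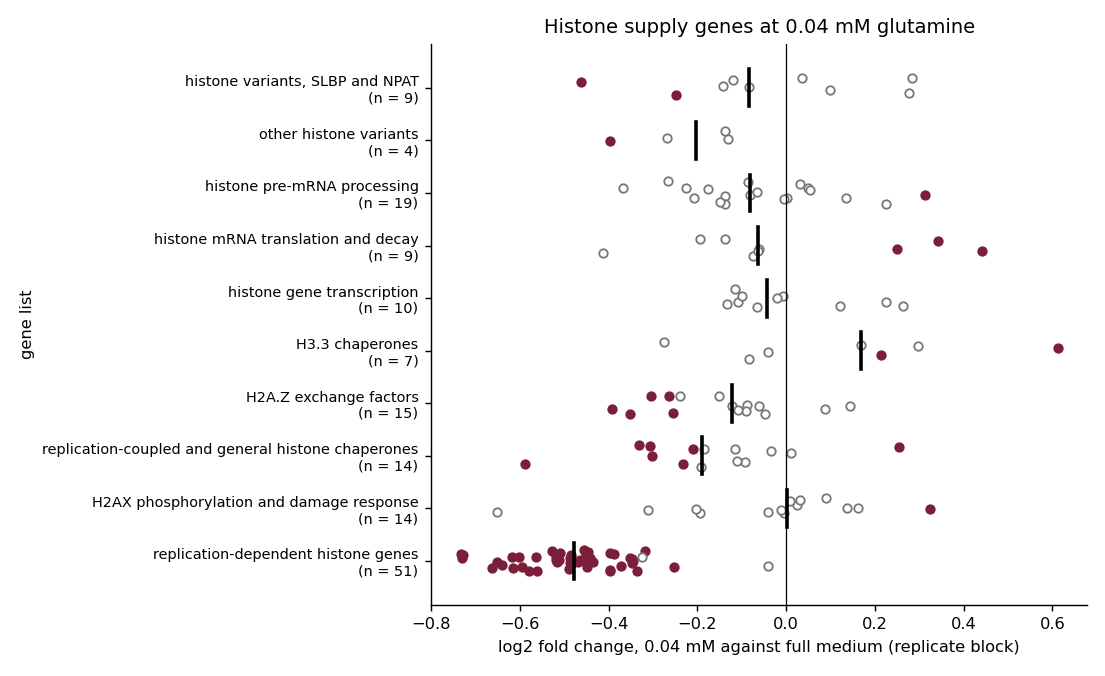
Log2 fold change at 0.04 mM against full medium in the blocked fit (x axis) of the 9 described genes and of each list (y axis, with the number of genes tested), with 1 point per gene, filled where the adjusted p was under 0.05, and a black bar at the median. The replication-dependent histone genes all lie below 0, with 49 of 51 filled, and the other lists straddle 0 except for the 4 other histone variants.

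Of 7 H3.3 chaperone genes 2 rose and none fell, with a median of 0.17. ATRX, the chromatin remodeller that works with DAXX, rose to 120.7 ± 17.9 CPM at 0.04 mM against 78.8 ± 11.2 CPM in full medium (SD, n = 3 each; log2 change 0.61, adjusted p = 2.66e-06; unblocked 0.138), and at 0.12 mM (0.42, 0.000673) and 0.20 mM (0.51, 3.71e-05). At 0.12 mM the call was lost with spike-in scaling (0.24, 0.23). ATRX was also higher at 0.04 than at 0.28 mM (0.39, 0.0384), a call kept in 4 of 14 blocked alternatives and lost without any 1 of the 6 libraries compared (adjusted p = 0.0512 to 0.61), with spike-in scaling, with the GC and length offset, without the libraries rich in mitochondrial ribosomal RNA and without replicate 3 in every group. UBN1, a subunit of the HIRA complex, rose by 0.21 (0.0465), while HIRA was at -0.27 (0.284) and DAXX at -0.042 (0.803). The ATRX call at 0.04 mM held in all 14 blocked alternatives and that of UBN1 in 5 of 14; only ATRX passed without the full-medium replicate 2 or without any 1 replicate of the 0.04 mM group.

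Of 15 H2A.Z exchange genes 5 fell and none rose, with a median of -0.12. RUVBL2 (-0.30, adjusted p = 0.00207), RUVBL1 (-0.26, 0.0110) and EP400 (-0.26, 0.0121) encode subunits of the remodellers that load H2A.Z and serve other complexes too, and ANP32E (-0.35, 0.00357) encodes the chaperone that removes it. Of the 15, 3 fell without the full-medium replicate 3 or without replicate 1 or 3 of the 0.04 mM group. Over all genes 599, 647 and 611 fell in these fits, in the same order. The count of the 15 was 2 without the 0.04 mM replicate 2, without both libraries rich in mitochondrial ribosomal RNA, or without replicate 3 in every group. There 392, 671 and 398 of all genes fell. With spike-in scaling 0 passed in edgeR, against the 5 with TMM scaling, where 224 and 862 of all genes fell. At an unadjusted p under 0.05 the blocked fit with TMM scaling listed 6 of the 15, where 27.1% of all genes were listed. Of 14 replication-coupled and general histone chaperone genes 6 fell and 1 rose, with a median of -0.19. MCM2, a subunit of the replicative helicase that also binds H3 and H4, fell to 154.7 ± 26.1 CPM at 0.04 mM against 231.8 ± 28.5 CPM in full medium (SD, n = 3 each; log2 change -0.59, adjusted p = 9.28e-05), and at the higher limited concentrations (-0.46, -0.48 and -0.41). From 0.12 to 0.28 mM its calls were lost without replicate 3 in every group (-0.26, -0.28 and -0.19; adjusted p = 0.0861, 0.0516 and 0.44). At 0.28 mM the call was lost too with DESeq2 (0.0679), without the full-medium replicate 2 (0.0506) or 3 (0.174) and without the 0.28 mM replicate 1 (0.0805) or 3 (0.23). ASF1B (-0.31, 0.0127) and HJURP (-0.30, 0.00574), chaperones of H3-H4 and of CENP-A, fell too, and the H2A-H2B chaperone gene NAP1L1 rose (0.25, 0.00678). The NAP1L1 call held in 10 of 14 blocked alternatives, over which its change ranged from 0.078 to 0.32. It was lost with spike-in scaling, with the GC and length offset and without replicate 3 in every group. Of the 14 genes 1 fell with spike-in scaling, 3 without replicate 3 in every group and 2 without the full-medium replicate 3 alone. Without replicate 1 or replicate 2 of the 0.04 mM group 1 and 3 fell. Over all genes 224, 398, 599, 647 and 392 fell in these fits, in the same order.

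Of 14 tested genes of H2AX phosphorylation and the damage response 1, ATM, rose and none fell, with a median of 0.0016. MDC1, which binds phosphorylated H2AX, was at -0.20 (adjusted p = 0.0856), the phosphatase subunit gene PPP4C at -0.20 (0.0677), and EYA2, at 3.29 ± 0.815 CPM at 0.04 mM against 5.14 ± 1.47 CPM in full medium (SD, n = 3 each), at -0.65 (0.110). Phosphorylated H2AX protein was not measured here.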

How the data were processed

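The authors deposited a table of raw read counts per gene for 15 libraries, used here as deposited. The build GRCh38.p14 is given in the submitters' processing notes, and libraries were made with a ribosomal RNA depletion kit and ERCC spike-ins, per the labels' protocols. No aligner, counting tool or strand rule is given in the sources used here. Each of the 15 columns carried its sample's name. Spike-ins stayed out of library sizes.

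Counts were tested with edgeR 4.0.16 (R 4.3.3): genes kept by a minimum count of 10 and total of 15 (13828 genes), TMM scaling, quasi-likelihood F tests in 1 fit of all 15 libraries, and Benjamini-Hochberg adjustment over all genes. Standard errors are the log2 change over the square root of F. The planned fit has no block. Replicate numbers come from the labels, which do not say what they stand for. Deviations from the group means correlated in all 30 same-number pairs (r = 0.184 to 0.489) and reached at most 0.0549 in the 60 others, so the numbers were taken to pair the libraries and the fit with the number as a block is printed beside the planned one.

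Alternatives were DESeq2 1.42.0 (with its size factors also used in edgeR), spike-in scaling, other filters, left-out libraries, a GC and length offset from GENCODE 29 and the 2 compared groups alone; leaving out replicate 3 in every group was chosen after seeing the data. The members and lists were chosen with earlier results of these data known. Of the lists, named genes were those set by name and up to 4 with the smallest blocked adjusted p at 0.04 mM. Intervals and standard errors cover these libraries only. The values of 1 gene of the lists are not reported here.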

Additional observations from a re-analysis of the deposited data

How the results depend on the processing

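With the replicate number as a block, edgeR called 2, 1, 2 and 1 of the 9 genes from 0.04 to 0.28 mM, against 0 at each concentration without it, where over all genes it called 1859, 1149, 2050 and 287 with the block and 6, 0, 2 and 0 without it. Within the blocked fits the 4 counts, in the same order of concentration, were 2, 1, 2 and 1 with DESeq2, 4, 1, 2 and 1 with DESeq2 size factors in edgeR, 1, 2, 1 and 1 with spike-in scaling, 2, 1, 1 and 1 with no filter beyond 1 count, 4, 1, 2 and 1 with a minimum of 5 CPM, 1, 1, 2 and 1 without the libraries of high mitochondrial rRNA, 1, 1, 2 and 0 with the GC and length offset, and 2, 1, 1 and 0 with replicate 3 left out of every group, a setting chosen after seeing the data. Over all genes, in the same order of concentration, DESeq2 called 993, 577, 1004 and 210 higher and 749, 519, 897 and 142 lower. DESeq2 size factors gave 1080, 629, 1098 and 184 higher and 810, 523, 963 and 107 lower. Spike-in scaling gave 282, 76, 141 and 18 higher and 224, 1130, 280 and 102 lower. No filter beyond 1 count gave 819, 518, 895 and 232 higher and 870, 551, 844 and 153 lower. A minimum of 5 CPM gave 1027, 645, 1111 and 190 higher and 938, 602, 1104 and 165 lower. Without the libraries of high mitochondrial rRNA 769, 474, 1104 and 195 were higher and 671, 399, 1030 and 143 lower. The GC and length offset gave 708, 464, 409 and 141 higher and 856, 613, 553 and 139 lower. With replicate 3 left out of every group 598, 282, 646 and 1 were higher and 398, 181, 339 and 0 lower. Without the block every setting gave 0 of the 9 genes. Leaving out single libraries gave 0 of the 9 genes at each concentration without the block, and 1 to 2, 1 to 2, 1 to 3 and 0 to 2 with it. Over all genes those blocked fits called 571 to 1087, 306 to 742, 507 to 936 and 18 to 449 higher. They called 392 to 1000, 244 to 696, 480 to 949 and 6 to 325 lower. In the blocked fit H2AX stayed past the threshold under 14 of 14 alternatives from 0.04 to 0.20 mM and under 9 of 14 at 0.28 mM, with -0.26 (adjusted p = 0.0501) under the GC and length offset. H2AZ1 at 0.04 mM stayed past it under 6 of 14 and NPAT at 0.20 mM under 7 of 14. The cause of the lost calls was not tested.

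Spike-in scaling in the blocked fit moved the median log2 change of all genes to -0.177 at 0.12 mM and -0.129 at 0.28 mM. With that scaling and no block, the log2 change against full medium turned to -0.00052 for H1-10 at 0.04 mM, -0.067 for H3-3A and -0.083 for NPAT at 0.12 mM, -0.0064 for H2AZ2 at 0.20 mM, and -0.075, -0.069 and -0.062 for H1-10, H2AZ2 and H3-3A at 0.28 mM, and the H2AX slope to -0.0020. With it and the block, the change turned to -0.038 for H3-3A and -0.055 for NPAT at 0.12 mM and to -0.080, -0.072 and -0.050 for H1-10, H2AZ2 and H3-3A at 0.28 mM, H2AZ1 at 0.04 against 0.28 mM to 0.0099, and the H2AX slope to -0.0010. MACROH2A1 at 0.28 mM, -0.0012 in the main fit, was 0.0038 with DESeq2 (0.0037 with the block), 0.0042 with size factors and 0.0028 with no filter, both with and without the block, and 0.013 with the block and the GC and length offset. That offset, with the block, also gave 0.055 and 0.086 for H1-10 at 0.12 and 0.20 mM, -0.051 for H2AZ2 and 0.015 for MACROH2A1 at 0.20 mM, and 0.0017 for the NPAT slope. With replicate 3 left out of every group and the block, H1-10 was 0.019 and H2AZ2 0.010 at 0.12 mM, and H2AZ1 was 0.0081 at 0.20 mM. None of these values was called in the main fit, and the cause was not tested.

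Leaving out single libraries, with or without the block, also turned the sign of uncalled values. At 0.04 mM H1-10 ranged over -0.067 to 0.092 and H2AZ2 over -0.018 to 0.20. At 0.12 mM H1-10 ranged over -0.11 to 0.018, H2AZ2 over -0.12 to 0.099 and NPAT over -0.023 to 0.24. At 0.20 mM H2AZ1 ranged over -0.29 to 0.073, H2AZ2 over -0.056 to 0.17 and SLBP over -0.16 to 0.038. At 0.28 mM the ranges were -0.035 to 0.14 for H1-10, -0.32 to 0.020 for H2AZ1, -0.053 to 0.17 for H2AZ2, -0.055 to 0.19 for H3-3A, -0.17 to 0.0026 for H3-3B, -0.040 to 0.027 for MACROH2A1 and -0.21 to 0.0016 for SLBP. The slopes ranged over -0.018 to 0.084 for H2AX and -0.041 to 0.013 for NPAT, and the 0.04 against 0.28 mM changes over -0.29 to 0.016 for H2AX and -0.25 to 0.045 for H2AZ1.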
